A study of Mus musculus with 12 samples.

Results

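The genes described here are the 10 core and output genes of the circadian clock, taken by name: Arntl, Clock, Per1, Per2, Per3, Cry1, Cry2, Nr1d1, Nr1d2 and Dbp. They are 10 of 15234 genes tested on arrays that measured gene expression in the gastrocnemius, the large calf muscle, of adult male CD1 mice, and all 10 passed the filter on dim signals. The 12 arrays fell into 4 groups of 3: control muscle of wild-type (WT) mice, WT muscle 14 days after denervation (loss of its nerve supply), control muscle of Smad4 knockout (KO) mice, and KO muscle 14 days after denervation. Smad4 is the common partner of the Smad proteins that carry TGF-beta and BMP signals to the nucleus. The labels give 3 independent experiments per condition with different animals. The sources used here do not give the cells in which Smad4 was deleted, what alleles the WT mice carried, whether control and denervated muscle came from the same animal, or the hour of the day at which muscles were taken.

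The clock is a feedback loop of transcription that runs in nearly every cell, skeletal muscle included. Arntl (also called Bmal1) and Clock form a pair that binds E-boxes and switches on the Per and Cry genes, whose proteins return to the nucleus and repress the pair, and it also switches on Nr1d1 and Nr1d2 (Rev-erb alpha and beta), which repress Arntl through ROR elements. Dbp, an activator that binds D-boxes, carries the rhythm to output genes. Because Arntl is at its peak when the Per genes, Nr1d1 and Dbp are near their trough, transcript levels of these genes depend on the hour of sampling, and muscle clocks are known to set the timing of glucose uptake and fuel use.

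Some of these roles have a counterpart in short motifs of the genes' promoters, and 4 windows that hold such motifs are shown. Each window runs from 250 bases before to 50 after the start of transcription (RefSeq, GRCm38.p6), 5′ to 3′ on the gene's strand, with the motif in capitals. Of the 10 genes, 9 had such a window, and Per2 had none. Arntl lies at chr7:113207261-113207560 (plus strand), with a ROR element, the site for the Nr1d repressors, 26 bases after the start. Cry1 lies at chr10:85185005-85185304 (minus strand), with an E-box and, on the opposite strand, a noncanonical E-box. Per1 lies at chr11:69098699-69098998 (plus strand), with an E-box. Per3 lies at chr4:151044616-151044915 (minus strand), with 2 D-boxes.
Arntl: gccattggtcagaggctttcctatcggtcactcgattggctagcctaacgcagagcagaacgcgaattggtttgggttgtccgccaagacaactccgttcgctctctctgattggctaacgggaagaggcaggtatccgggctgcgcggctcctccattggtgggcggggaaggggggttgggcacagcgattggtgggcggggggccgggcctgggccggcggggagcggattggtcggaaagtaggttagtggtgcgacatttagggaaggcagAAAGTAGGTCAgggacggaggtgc
Cry1: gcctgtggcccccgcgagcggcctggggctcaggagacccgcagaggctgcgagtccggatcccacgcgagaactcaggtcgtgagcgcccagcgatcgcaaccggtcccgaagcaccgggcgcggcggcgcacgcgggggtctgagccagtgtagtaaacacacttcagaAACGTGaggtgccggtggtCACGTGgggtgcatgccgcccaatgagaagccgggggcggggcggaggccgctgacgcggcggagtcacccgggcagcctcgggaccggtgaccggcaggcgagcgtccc
Per1: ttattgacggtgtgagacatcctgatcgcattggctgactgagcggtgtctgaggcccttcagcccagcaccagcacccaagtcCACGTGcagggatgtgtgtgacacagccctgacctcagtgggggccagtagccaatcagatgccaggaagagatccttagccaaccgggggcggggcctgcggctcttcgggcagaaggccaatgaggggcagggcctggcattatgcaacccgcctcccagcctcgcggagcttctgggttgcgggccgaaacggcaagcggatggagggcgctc
Per3: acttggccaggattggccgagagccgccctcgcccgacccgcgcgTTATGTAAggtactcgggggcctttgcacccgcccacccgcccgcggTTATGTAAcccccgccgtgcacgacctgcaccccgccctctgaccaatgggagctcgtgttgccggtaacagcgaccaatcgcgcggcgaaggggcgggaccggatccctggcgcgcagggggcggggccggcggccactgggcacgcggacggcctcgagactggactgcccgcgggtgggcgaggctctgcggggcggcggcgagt
Both strands were searched. The E-box (CACGTG) was present in 7.15% of all 32851 promoters of this length, the noncanonical E-box (CACGTT) in 4.68%, the D-box (TTATGTAA or TTACGTAA) in 1.06% and the ROR element in 0.384%. Cry2 and Nr1d1 also held a noncanonical E-box. Clock, Dbp and Nr1d2 held none of the motifs searched in any window, nor did the second window of Arntl and of Per1, which says only that these letters are not in those windows. No window of the 9 genes held the cAMP response element (TGACGTCA), which 1.79% of all promoters held. A match describes letters and does not show that a factor was bound in these muscles.

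The 41174 probes of the design gave signals clear of background for 50.2% to 56.4% of them, depending on the array, and 0 spots were saturated. All levels below are log2 signals from which the 75th percentile of the same array, 219 to 364 intensity units, has been subtracted. A level of 0 thus equals the array's 75th percentile, and a difference of 1 is a doubling. The number of arrays, 3 in each group, limits the precision. Smad4 itself was at 3.59 to 4.02 in WT control and 2.19 to 2.42 in KO control muscle, and at 3.18 to 3.49 against 1.77 to 2.05 after denervation. Its mean over both conditions was lower in KO muscle by a log2 difference of -1.44 (limma with Benjamini-Hochberg adjustment, adjusted p = 4e-04). Smad4 transcript thus stayed measurable in KO muscle, and whether its probes lie in the deleted stretch is not given. The arrays lay on 4 slides, each of which held 2 to 4 arrays. In order of replicate, WT control arrays lay on slides 1, 2 and 3 and KO control arrays on slides 4, 2 and 3. WT denervated arrays lay on slides 1, 4 and 4 and KO denervated arrays on slides 1, 4 and 3. Only slide 4 was scanned on day 2 of the 2 scan days. Slide and condition were thus unevenly mixed, and the part of the slides in the spread was not tested.

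**Figure D1:**
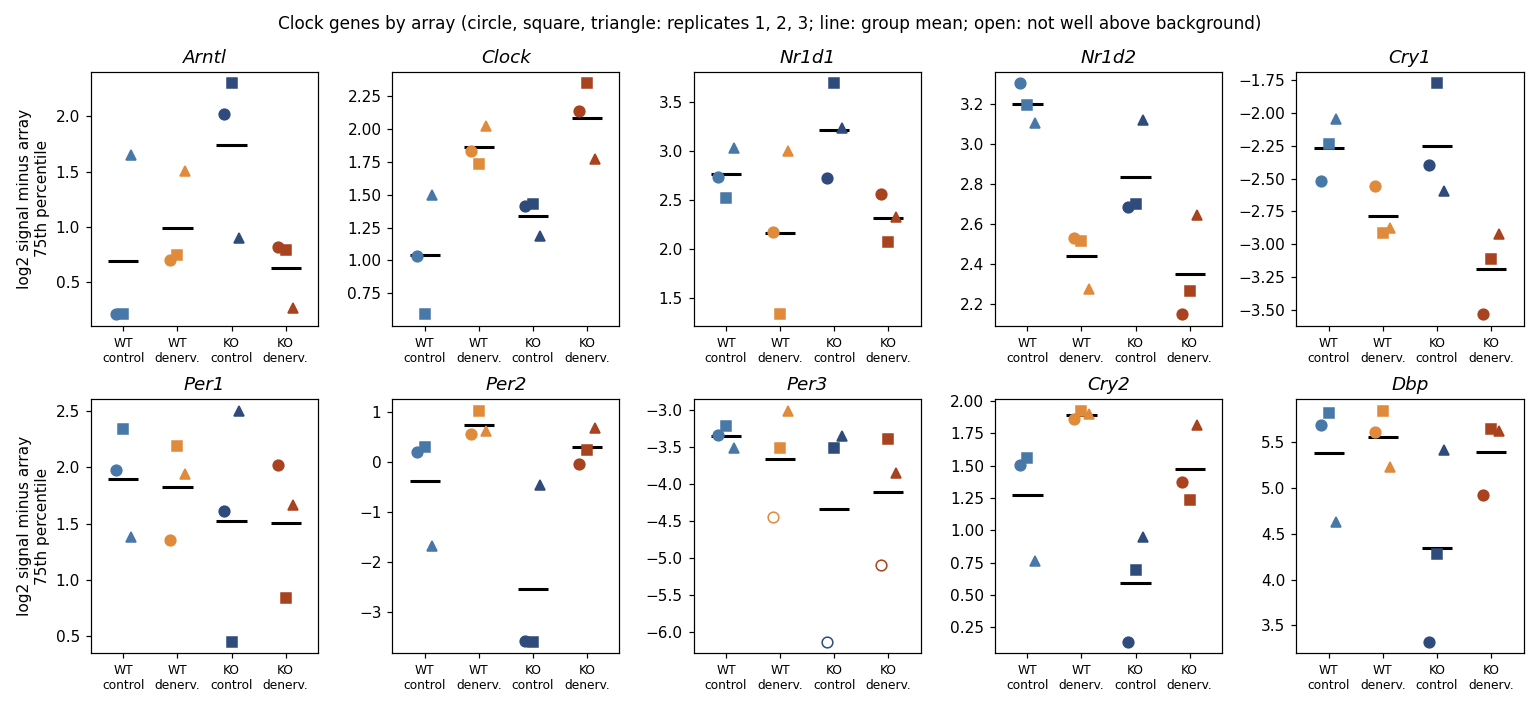
Levels of the 10 clock genes on each array, on the log2 scale relative to the 75th percentile, with a separate vertical scale for each gene. Each symbol is 1 array, the shape gives the replicate number, the line the group mean and an open symbol a signal not well above background; Clock was higher and Nr1d2 lower on all denervated arrays than on all control arrays of the same genotype, while Per2 in control muscle ran from -3.58 to 0.30.

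The first question the design poses is what denervation did to the clock genes in each genotype. In WT muscle Clock, the partner of Arntl, rose 1.77-fold and Nr1d2, a repressor of Arntl, fell 1.69-fold. Those same genes moved the same way in KO muscle, by 1.67-fold and 1.40-fold, where in addition the Period gene Per2 rose 7.10-fold, the cryptochrome Cry2 rose 1.84-fold and the other cryptochrome Cry1 fell 1.91-fold. In WT muscle 2 of the 10 genes passed an adjusted p of 0.05 (1 higher, 1 lower), against 39.2% of all genes tested (18.7% higher, 20.6% lower). In KO muscle 5 of 10 passed (3 higher, 2 lower), against 46.9% of all genes (23.7% higher, 23.2% lower). The clock genes were therefore called no more often than the array as a whole in WT muscle and about as often in KO muscle. Their median log2 difference was 0.06 in WT and 0.10 in KO muscle, beside -0.02 and 0.003 over all genes. The comparisons in WT and KO muscle share no arrays, only the estimate of the spread. Whole muscle was measured, so that fewer cells of a type and less RNA per cell cannot be told apart.

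The order of the single arrays gave a similar picture. In WT muscle all denervated arrays were above all control arrays for 3 genes (Clock, Cry2 and Per2) and below them for 2 (Cry1 and Nr1d2), while 5 overlapped. Over all genes the share that did not overlap was 52.9% (25.9% above, 27% below). In KO muscle 3 genes were above (Clock, Cry2 and Per2 again), 4 below (Arntl, Cry1, Nr1d1 and Nr1d2) and 3 overlapped, against 56.7% of all genes without overlap (28.4% above, 28.2% below). Every gene that parted the arrays in WT muscle parted them in the same direction in KO muscle.

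**Figure D2:**
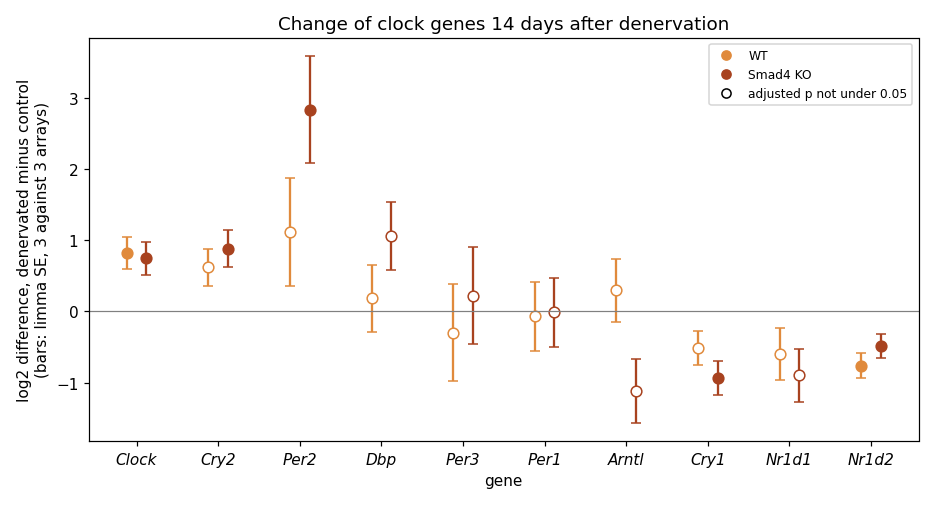
Log2 difference between denervated and control muscle for each clock gene, in WT and Smad4 KO mice, with the standard error of the limma fit (3 against 3 arrays). Filled points have an adjusted p under 0.05; Per2 in KO muscle stands highest at 2.83, and Arntl is the gene whose WT and KO values lie on opposite sides of 0 by the most, at 0.29 and -1.12, with neither value past the threshold.

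Clock encodes the histone acetyltransferase that pairs with Arntl. Its level was 1.03, 0.59 and 1.50 in the 3 WT control muscles and 1.83, 1.74 and 2.02 in the WT denervated ones. In KO muscle it was 1.41, 1.43 and 1.18 in control and 2.14, 2.35 and 1.77 in denervated muscle. The denervated muscles of both genotypes thus lay above every control muscle. The log2 difference was 0.82 in WT (SE 0.22, adjusted p = 0.0136) and 0.74 in KO muscle (SE 0.22, adjusted p = 0.0186). The other 2 Clock probes that were well above background rose too, by 1.11 and 0.72 in WT and by 0.99 and 0.55 in KO muscle. Within a slide, denervated minus control was 0.80 in WT muscle on the only slide that held both, and 0.58 and 0.94 in KO muscle on the pair of slides that did. With the slide as a block the call was lost in both genotypes (0.64, adjusted p = 0.127; 0.65, adjusted p = 0.0691), as it was with normexp background correction (adjusted p = 0.204 and 0.174). Without WT control replicate 2 the WT value was 0.60 (adjusted p = 0.0539), and the KO call was lost without KO denervated replicate 2 (0.0709 as adjusted p) or KO control replicate 3 (0.0627).

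Arntl, the partner without which the loop stops, moved differently from muscle to muscle. It was at 0.21, 0.21 and 1.65 in WT control and at 0.70, 0.75 and 1.51 in WT denervated muscle. In KO control muscle it was at 2.02, 2.30 and 0.90, and in KO denervated muscle at 0.81, 0.79 and 0.27. The WT groups overlapped, and a single WT control muscle (1.65) stood within the KO control range. All KO denervated muscles were below all KO control muscles. With denervation it differed by 0.29 in WT (SE 0.44, adjusted p = 0.631) and -1.12 in KO muscle (SE 0.44, adjusted p = 0.0577), neither past the threshold. The KO value was -0.63 and -1.23 within the slides that held both conditions. It passed the threshold without WT control replicate 3 (adjusted p = 0.0253), which enters only through the pooled spread, or without KO control replicate 3 (-1.54, adjusted p = 0.0159), and where fewer arrays or genes entered the test (adjusted p = 0.0439 with the compared groups alone, 0.0442 with genes well above background on all 12 arrays). In the order of means KO control muscle came first at 1.74 ± 0.74 (SD, n = 3), then WT denervated at 0.98 ± 0.45, WT control at 0.69 ± 0.83 and KO denervated at 0.62 ± 0.31, and each neighbouring pair overlapped.

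Nr1d2 and Nr1d1 encode the nuclear receptors that repress Arntl. Nr1d2 was at 3.30, 3.19 and 3.1 in WT control and at 2.53, 2.51 and 2.28 in WT denervated muscle. It was at 2.68, 2.70 and 3.12 in KO control and at 2.15, 2.26 and 2.64 in KO denervated muscle. Control and denervated arrays did not overlap in either genotype, and 2 of the 3 KO control muscles lay below every WT control muscle. Denervated minus control was -0.76 in WT (SE 0.17, adjusted p = 0.00524) and -0.48 in KO muscle (SE 0.17, adjusted p = 0.0391). Within slides it was -0.78 in WT and -0.48 and -0.42 in KO muscle. With the slide as a block the WT call held (-0.64, adjusted p = 0.0455) and the KO call did not (-0.50, adjusted p = 0.0558). Normexp ended the WT call by a small margin (-0.90, adjusted p = 0.0534). Besides the slide block, the KO call was lost with normexp, quantile normalization, the deposited matrix, no filter and the compared groups alone, and without any 1 of 4 arrays (WT control replicate 2, KO denervated replicates 1 and 2, KO control replicate 3), with adjusted p between 0.0514 and 0.149 for those 4.

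Nr1d1 ran the same way with a wider spread. Its level was 2.74, 2.52 and 3.03 in WT control and 2.17, 1.33 and 3.00 in WT denervated muscle. In KO muscle it was 2.73, 3.69 and 3.23 in control and 2.56, 2.08 and 2.32 in denervated muscle. WT groups overlapped through denervated replicate 3, while KO groups did not overlap. With denervation Nr1d1 differed by -0.59 in WT (adjusted p = 0.226) and -0.90 in KO muscle (adjusted p = 0.0657), neither past the threshold. All 3 Nr1d1 probes had lower means after denervation in both genotypes. Without WT denervated replicate 3 the WT value was -1.01 (adjusted p = 0.0329), and the KO value passed the threshold under several settings, among them the mean of the probes (-1.01, adjusted p = 0.0376) and the compared groups alone (adjusted p = 0.0304). It also passed without any 1 of WT denervated replicate 2, WT denervated replicate 3 and KO control replicate 1 (adjusted p between 0.026 and 0.0393).

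The Period genes encode the slow repressors of the loop, and among them Per2 spanned the widest range of levels. It was at 0.20, 0.30 and -1.68 in WT control and at 0.54, 1.01 and 0.61 in WT denervated muscle. In KO control muscle it was at -3.56, -3.58 and -0.47, and in KO denervated muscle at -0.04, 0.23 and 0.67. KO control replicates 1 and 2 were well above background but dim, at 0.0846 and 0.0833 of the 75th percentile. Those percentiles were 270 and 238 units, and the lowest signals well above background on these arrays were 14.8 and 16.5 units. The KO rise, the spread and the correlations of Per2 rest in part on these dim values. The 6 denervated muscles ran from -0.04 to 1.01, while the 6 control muscles ran from -3.58 to 0.30. The log2 difference with denervation was 1.12 in WT (SE 0.75, adjusted p = 0.265) and 2.83 in KO muscle (SE 0.75, adjusted p = 0.00982). The KO rise was 1.15 and 3.79 within the slides that held both conditions, and 2.78 with the slide as a block (adjusted p = 0.037). It kept its call under every alternative run, with values between 2.31 and 3.86 where 1 array was left out. The second Per2 probe was dimmer, was not well above background on every array, and fell by 0.98 in WT and by 0.44 in KO muscle. Averaging both probes left a KO rise of 1.19 (adjusted p = 0.0459) and a WT difference of 0.07.

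Per1, which also answers directly to hormones and cAMP, did not move with denervation beyond its spread. It was at 1.97, 2.34 and 1.38 in WT control, 1.35, 2.19 and 1.94 in WT denervated, 1.61, 0.45 and 2.50 in KO control, and 2.02, 0.84 and 1.67 in KO denervated muscle. All 4 groups overlapped. The log2 difference was -0.07 in WT (SE 0.48, adjusted p = 0.921) and -0.01 in KO muscle (SE 0.48, adjusted p = 0.985). Per3, a paralogue with a lesser part in the loop, was the only one of the 10 that was not well above background on all 12 arrays. It missed that mark on 1 array each of WT denervated, KO control and KO denervated muscle, and its level ran from -3.52 to -3.22 in WT control, from -4.45 to -3.01 in WT denervated, from -6.14 to -3.35 in KO control and from -5.10 to -3.39 in KO denervated muscle. Those groups overlapped, and neither the WT value of -0.30 (adjusted p = 0.755) nor the KO value of 0.22 (adjusted p = 0.809) passed the threshold.

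The cryptochromes, the strong repressors that act with the Per proteins, moved in opposite directions. Cry2 was at 1.51, 1.55 and 0.76 in WT control and at 1.86, 1.92 and 1.90 in WT denervated muscle. In KO muscle Cry2 was at 0.14, 0.69 and 0.95 in control and at 1.37, 1.24 and 1.81 in denervated samples. The WT denervated muscles were close together and lay above all KO denervated ones. The log2 difference was 0.88 in KO muscle (SE 0.26, adjusted p = 0.0159) and 0.62 in WT muscle (SE 0.26, adjusted p = 0.078), the latter not past the threshold. With the slide as a block the KO value was 0.97 (adjusted p = 0.0225), and within slides it was 0.86 and 1.1. Its call was lost with normexp (adjusted p = 0.0703), without KO control replicate 1 (adjusted p = 0.0618) and without KO denervated replicate 3 (adjusted p = 0.064).

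Cry1 was at -2.52, -2.24 and -2.05 in WT control and at -2.56, -2.91 and -2.87 in WT denervated muscle. In KO muscle it was at -2.40, -1.78 and -2.59 in control and at -3.53, -3.11 and -2.92 in denervated samples. Every denervated muscle lay below every control muscle of its genotype, in WT muscle by a narrow gap (-2.56 against -2.52 for the nearest arrays). The log2 difference was -0.93 in KO muscle (SE 0.24, adjusted p = 0.00762) and -0.51 in WT muscle (SE 0.24, adjusted p = 0.107). The KO value was -0.32 and -0.71 within slides and -0.76 with the slide as a block (adjusted p = 0.0345). Cry1 lay near the dim end of the measured range, and with normexp the KO difference was -0.08 (adjusted p = 0.926). A second Cry1 probe, also well above background on all arrays, differed by -0.08 in WT and -0.27 in KO muscle.

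Dbp, the output activator, was at 5.69, 5.82 and 4.63 in WT control and at 5.62, 5.85 and 5.23 in WT denervated muscle. It was at 3.32, 4.28 and 5.42 in KO control and at 4.92, 5.65 and 5.63 in KO denervated muscle. Groups overlapped in both genotypes, and the 3 lowest of the 12 muscles were controls. Denervation went with a log2 difference of 0.18 in WT (SE 0.48, adjusted p = 0.787) and 1.06 in KO muscle (SE 0.48, adjusted p = 0.0879), neither past the threshold. Within slides the KO value was 0.21 and 2.33. It passed without KO control replicate 3 (1.60, adjusted p = 0.0107) and with quantile normalization (1.28, adjusted p = 0.0494).

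The cell types of the muscle changed in their markers over the same comparisons. As background for the marker counts, 18.7% of all genes rose and 20.6% fell in WT muscle. In KO muscle 23.7% rose and 23.2% fell. The fibre markers, at a summed level (linear signal in units of the 75th percentile) of 2031 to 2533 in WT control muscle, were at 1710 to 2627 in WT denervated, 2807 to 2870 in KO control and 1534 to 2073 in KO denervated muscle. Of 8 fibre markers 1 fell in WT and 4 in KO muscle. Of 7 endothelial markers 5 fell in WT and 6 in KO muscle, with a summed level of 23.0 to 28.7 in WT control and 9.36 to 16.6 in WT denervated muscle, and of 26.9 to 29.5 and 13.7 to 15.7 in KO muscle. Schwann cell markers fell as well, 4 of 6 in each genotype, with a summed level of 5.01 to 8.48 in control and 1.14 to 1.67 in denervated WT muscle, and of 4.10 to 10.4 and 1.94 to 2.26 in KO muscle. Of 6 smooth muscle and pericyte markers 3 fell in WT and 2 in KO muscle, and both erythrocyte markers that were tested fell in both. Of 7 macrophage markers 1 rose in WT and 3 in KO muscle, and 1 of 4 satellite cell markers rose in each. Among 6 fibroblast markers 1 fell in WT muscle and none passed the test in KO muscle, and no adipocyte marker of 4 passed it in either. The part of these shifts in the clock gene differences was not tested.

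The second question is whether KO muscle differed from WT muscle in its clock genes. The means of control muscle lay apart for several of them: Per2 was lower in KO control muscle by a log2 difference of -2.15 (SE 0.75), Dbp by -1.04 (SE 0.48) and Cry2 by -0.68 (SE 0.26), while Arntl was higher by 1.05 (SE 0.44). None of these passed the threshold, and the WT and KO arrays overlapped for all 10 genes, as they did for all but 8.44% of the genes on the array. Of the 10 genes 0 were called by limma in control muscle, against 0.00656% of all genes. At an unadjusted limma p under 0.05 there were 3. The share of all genes at that unadjusted threshold is not given here, so this count and the unadjusted counts below have no background beside them. On the slides that held control muscle of both genotypes the KO minus WT difference of Per2 was -3.88 and 1.21, that of Arntl 2.09 and -0.75 and that of Dbp -1.54 and 0.79, so that each changed sign between slides.

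In denervated muscle the difference was smaller than in control muscle for Per2, Arntl, Dbp and Cry2, and larger for Cry1, which differed by 0.01 in control muscle. Cry2 was lower in KO by -0.42 (SE 0.26, adjusted p = 0.462) and Cry1 by -0.40 (SE 0.24, adjusted p = 0.433), and for both all KO arrays lay below all WT arrays. Over all genes 21.7% did not overlap in this comparison, 11.5% with KO below WT. Per2 differed by -0.43 (SE 0.75), Arntl by -0.36 (SE 0.44) and Dbp by -0.17 (SE 0.48). No clock gene was called by limma (0 of 10, against 2.19% of all genes), and 0 had an unadjusted p under 0.05.

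Averaged over both conditions, Per2 was lower in KO muscle by -1.29 (SE 0.53, adjusted p = 0.399) and Cry2 by -0.55 (SE 0.18, adjusted p = 0.248). Again 0 of 10 genes were called, against 0.912% of all genes, with 2 at an unadjusted p under 0.05. Without KO control replicate 3 the Per2 average was -1.81 and passed (adjusted p = 0.0471). The difference between the genotypes' responses to denervation was tested as an interaction. It was -1.41 for Arntl (SE 0.63, adjusted p = 0.514), 1.71 for Per2 (SE 1.06, adjusted p = 0.656) and 0.87 for Dbp (SE 0.67, adjusted p = 0.733). The other 7 genes lay between -0.42 for Cry1 and 0.52 for Per3. With 0 of 10 called, against 0.184% of all genes, and 1 at an unadjusted p under 0.05, calls made in KO and not in WT muscle are not shown to differ between the genotypes. The standard errors are wide at 3 arrays a group, and these tests do not show that the genotypes act alike.

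The spread between muscles of the same group was itself large for these genes, a measure that was looked at after the levels had been seen. Per2 had a pooled SD within groups of 1.49 log2 units over the control arrays and of 0.31 over the denervated arrays, a ratio of 4.80. Dbp had 0.88 and 0.36, Arntl 0.79 and 0.39, and Cry2 0.43 and 0.21, so that each spread 2.02 to 2.40 times as widely among control muscles. Per1 (0.80 and 0.53), Per3 (1.11 and 0.81), Clock (0.33 and 0.23) and Cry1 (0.34 and 0.26) leaned the same way by less, and Nr1d2 (0.19 and 0.21) and Nr1d1 (0.38 and 0.61) the other way. The SD was thus larger among control arrays for 8 of 10 clock genes, beside 45.8% of the 15000 genes with complete values. The median ratio was 1.49 for the clock genes and 0.939 over all genes. The clock genes' median SD of 0.61 among control arrays compares with 0.22 over all genes, and that of 0.34 among denervated arrays with 0.25. Among genes well above background on every array the count was 7 of 9 clock genes, beside 43.8% of 12661. Under normexp background correction it was 5 of 10 genes, with a median ratio of 1.12. These counts are a description and were not tested.

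**Figure D3:**
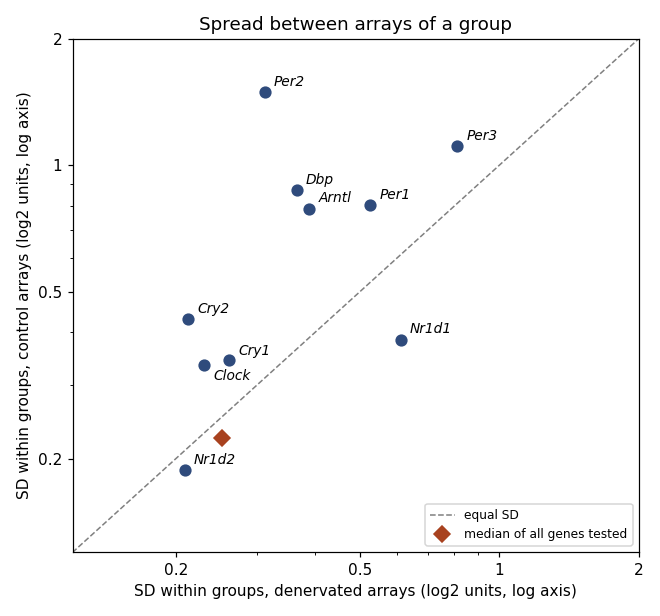
Standard deviation within groups of each clock gene, over the denervated arrays (horizontal) and the control arrays (vertical), in log2 units on log axes, each pooled from a WT and a KO group of 3. Points above the dashed line spread more among control muscles; Per2 lies farthest above it at 1.49 against 0.31, and the diamond marks the median of all genes tested at 0.22 against 0.25.

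The control muscles differed from each other in an order that several of the clock genes shared. Arntl was highest in KO control replicates 2 and 1 (2.30 and 2.02) and WT control replicate 3 (1.65). Those same muscles were the 3 lowest of the 6 controls for Per2 (-3.58, -3.56 and -1.68), for Dbp (4.28, 3.32 and 4.63) and for Cry2 (0.69, 0.14 and 0.76). Per2, Dbp and Cry2 were thus lowest where Arntl was highest, in muscles of both genotypes, while Nr1d1, a target of Arntl and Clock as well, did not share that order (r = 0.63 over the 6 control arrays, exact permutation p = 0.186). Over the 6 control arrays the correlation of Per2 with Arntl was r = -0.97 (exact permutation p = 0.0083, two-sided) and rho = -0.94 (exact p = 0.0167). Without the 2 arrays farthest from the median of Arntl r was -0.96. For Nr1d2 r was -0.90 (exact p = 0.0208), for Cry2 -0.90 (exact p = 0.0194), for Dbp -0.90 (exact p = 0.0236) and for Clock 0.86 (exact p = 0.025). The matching rho values were -0.94, -0.89, -0.89 and 0.77, and r without the 2 farthest arrays was -0.85, -0.61, -0.79 and 0.77. For Per1 r was -0.80 (exact p = 0.0556), for Per3 -0.51 (exact p = 0.392) and for Cry1 0.60 (exact p = 0.2125), opposite in sign to Cry2. These are among 18 correlations with Arntl computed, and none stayed under 0.05 after Benjamini-Hochberg adjustment (lowest adjusted p 0.09 for r and 0.15 for rho).

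Among the 6 denervated muscles Per2 correlated with Arntl at r = -0.07 (exact permutation p = 0.896) and rho = -0.43, Cry2 at r = 0.09 (exact p = 0.758), Dbp at r = -0.44 (exact p = 0.364), Clock at r = 0.35 (exact p = 0.525) and Nr1d2 at r = -0.62 (exact p = 0.175). None of the 9 genes had an unadjusted exact p under 0.05. These values rest on the 2 arrays farthest from the median of Arntl, WT denervated replicate 3 (1.51) and KO denervated replicate 3 (0.27). Without that pair, over 4 arrays, r was -0.66 for Per2, -0.81 for Cry2, -0.64 for Dbp and 0.72 for Clock. It was -0.93 for Nr1d2, -0.98 for Cry1 (-0.02 over all 6), 0.10 for Per1, -0.17 for Per3 and 0.39 for Nr1d1. Arntl ran only from 0.70 to 0.81 on those 4 arrays, so each of these r values is imprecise. The difference between the conditions was not tested, and these values show neither that the relation was kept nor that it was lost after denervation. Each correlation pools WT and KO muscles. Within each genotype, the WT control muscle with the highest Arntl (replicate 3) had the lowest Per2, Dbp and Cry2 of its group, and the KO control muscle with the lowest Arntl (replicate 3) had the highest. With 3 arrays a genotype and at most 2 control arrays on a slide, no correlation was computed within either.

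**Figure D4:**
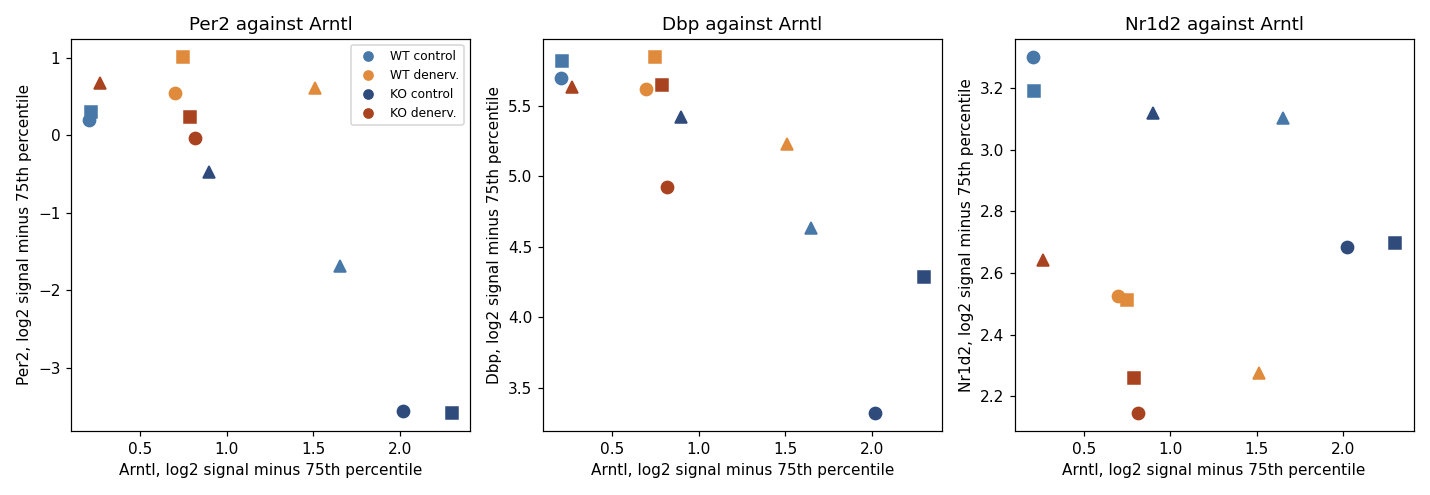
Per2, Dbp and Nr1d2 against Arntl on each of the 12 arrays, all on the log2 scale relative to the 75th percentile; colours give the group and circle, square and triangle replicates 1, 2 and 3. Among the 6 control arrays (blue) all 3 genes are lower where Arntl is higher, with r of -0.97, -0.90 and -0.90. Over the denervated arrays (orange and red) r for Per2 is -0.07, and -0.66 without the 2 arrays at the ends of the Arntl range. On the arrays then left Arntl runs only from 0.70 to 0.81.

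Other factors of the clock loops came from a list of 12, of which 9 were tested. Npas2, Arntl2 and Rorb were too dim to be tested. After denervation 20.6% of all genes fell and 18.7% rose in WT muscle, and 23.2% fell and 23.7% rose in KO muscle. Of the 9 loop factors 3 fell in each genotype and 0 rose. Among them were Nfil3, the repressor that competes with Dbp for D-boxes, at -1.66 in WT and -2.59 in KO muscle (adjusted p = 0.00428 and 0.000193), and Hlf, an activator related to Dbp, at -1.62 and -1.30 (adjusted p = 0.00328 and 0.00887). Nfil3 and Hlf were named here for their small adjusted p. Tef, the other relative of Dbp, differed by 0.18 and 0.36, neither past the threshold. Nfil3 was at 1.61, 1.56 and 2.80 in WT control and at 2.98, 2.67 and 1.89 in KO control muscle, so that its 3 highest control muscles were those with the highest Arntl. All its denervated values, from -0.35 to 0.56, lay below them. Ciart, a repressor of the Arntl and Clock pair that is named here after its values were seen, had a ratio of SDs of 7.12 (1.78 among control and 0.25 among denervated arrays), in which KO control replicate 2 was not well above background. It was at -0.11, -1.23 and -2.52 in WT control and at -3.60, -4.39 and -0.23 in KO control muscle, lowest in the same 3 muscles, and lay between -1.94 and -1.18 after denervation.

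The enzymes that mark clock proteins for work or decay formed a list of 12, of which 11 were tested and Fbxl21 was too dim. In WT muscle 3 rose and 4 fell, and in KO muscle 4 rose and 6 fell. Of all genes 18.7% rose and 20.6% fell in WT muscle, and 23.7% rose and 23.2% fell in KO muscle. Prkaa2, a catalytic subunit of the AMP kinase that destabilises Cry1, fell by 2.00 log2 units in WT and by 2.18 in KO muscle. Prkaa1, the other catalytic subunit, rose by 0.53 and 0.64. Csnk1e, a kinase of the Per proteins, fell by 0.70 and by 1.18, while the related Per kinase Csnk1d rose by 0.56 and 0.61. Csnk2a1, a catalytic subunit of casein kinase 2, rose by 0.86 and 0.59. Prkaa1 and Csnk1d are named here after their values were seen. All of these values were past the threshold in both genotypes, with adjusted p between 1.14e-06 and 0.0373. Prkaa2, Csnk1e and Csnk2a1 were picked for small adjusted p, so that passing was largely set by that choice.

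Rhythmic output genes of muscle, which are under clock control in other settings, did not move one way. In WT muscle 4 of 12 rose and 4 fell, and in KO muscle 2 rose and 5 fell. The background for this list and the next was 18.7% of all genes higher and 20.6% lower in WT muscle. In KO muscle it was 23.7% higher and 23.2% lower. In log2 units the cell cycle inhibitor Cdkn1a rose by 5.05 in WT and 4.79 in KO muscle. The glucose transporter Slc2a4 (GLUT4) fell by 1.39 and by 2.13 in the same units. Falls of the lipoprotein lipase gene Lpl were 1.71 and 2.35, and those of Alas1, the first enzyme of haem synthesis, 0.59 and 1.28. Glucocorticoids are a timing signal for peripheral clocks and induce Per1, so their response genes were taken as a further list. Of 11 tested, 2 rose and 3 fell in WT muscle, and 4 rose and 4 fell in KO muscle, and Zbtb16 was not on the array. The metallothionein Mt2 rose by 2.36 and 3.03 log2 units and the signal inhibitor Errfi1 by 2.05 and 2.06. The receptor chaperone partner Fkbp5 fell by 1.56 and by 2.51. Each of these 7 genes passed the threshold in both genotypes (adjusted p at most 0.0255). They were picked from their lists for small adjusted p in these comparisons, so that passing was largely set by that choice. Per1, which is a target of the same receptor, differed by -0.07 and -0.01 as given above.

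The genes whose pattern over the 12 arrays was most like each clock gene were found by the root mean square (RMS) difference of log2 levels, after each gene's own mean was removed, among 14999 other genes. For Clock these were Pkp4 at 0.136 and Rdh11 at 0.174. For Nr1d2 they were Eif4g2 at 0.140 and Ddx59 at 0.147, for Cry1 Dele1 at 0.169 and Znrd2 at 0.172, and for Cry2 Tspan4 at 0.239 and Trmt61a at 0.263. Nr1d1 lay nearest to Cldn15 at 0.239 and Hdac7 at 0.264, Per1 to Srbd1 at 0.243 and Tmod3 at 0.359, Arntl to A730009E18Rik and Pdzd3, both at 0.363, and Per3 to 2310068C19Rik at 0.579 and Hoxb5 at 0.592. The nearest genes to Per2, at 0.705 and 0.713, were transcripts that the array names by accession only, as was the nearest to Dbp at 0.334, ahead of 4732460I02Rik at 0.359. Of the clock genes themselves, Dbp had Cry2 at rank 5 of all genes (0.395), Per2 had Dbp at rank 13 (0.915) and Per3 had Dbp at rank 26 (0.680). The other 7 clock genes had their nearest clock gene at ranks from 331 to 8157.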

How the data were processed

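RNA of 12 gastrocnemius muscles was hybridised to one-colour (Cy3) Agilent arrays. Per the file headers, the authors deposited scanner output of Feature Extraction 10.7.3.1 (10.5.1.1 per the submitters' processing notes), whose processed signal is an intensity after background subtraction and detrending within the array, with no normalization between arrays. The deposited intensities were converted to log2 and each array's 75th percentile was subtracted, spots of a probe were averaged, and outlier spots were left out. Probes entered the test if all 3 arrays of some group had them well above background (22535 probes), and the brightest kept probe stood for its gene. Probes were named through RefSeq by accession (24375), symbol (6301) or synonym (2426), or kept the file's name (8072). Of the clock genes' 18 probes 16 were kept. The probes the levels rest on lie, in the files' mm8 coordinates, at chr7:113104645-113104704 (Arntl), chr5:77287127-77287186 (Clock), chr14:16997805-16997864 (Nr1d2), chr1:93246875-93246934 (Per2), chr10:84573549-84573608 (Cry1) and chr2:92205045-92205104 (Cry2). Exon positions were not used here.

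A model with 4 group means was fitted to all 12 arrays and 15234 genes with limma 3.58.1 (R 4.3.3; 8 residual degrees of freedom), with Benjamini-Hochberg adjustment over all genes in each of 6 comparisons. The script was tested on simulated data. Alternatives were normexp (offset 50), quantile or median normalization, the authors' deposited matrix of intensity values, other filters, the mean of probes, slide and replicate blocks, the compared groups alone, and each array left out in turn. The matrix is linear, with medians of 23.9 to 24.2 on every array, and its method is not given in the sources used here. Its columns matched their own arrays (r from 0.9988 to 0.9999 on the log2 scale). The clock genes and lists were chosen with earlier results of these data known. From each further clock or hormone list, up to 4 genes with the smallest adjusted p in either denervation comparison could be named, and for each clock gene the 2 genes most alike and its nearest clock gene. Some genes that this rule names are not reported here. P-values rest on the spread between muscles.

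WT arrays of the same replicate number deviated together from their group means. The r over genes was 0.304, 0.107 and 0.232 for numbers 1, 2 and 3, so those numbers may pair WT muscles. The main fit took all arrays as unpaired, and the replicate block was an alternative. Both arrays of WT number 1 lay on slide 1, so pairing and a shared slide cannot be told apart there. The WT value for number 2 was below the KO value of 0.175 for number 3, whose arrays shared slide 3. Whether the numbers mark pairs is not given in the labels.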

Additional observations from a re-analysis of the deposited data

How the results depend on the processing

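Over 22 settings, 1294 gene results were recomputed: 1215 kept direction and side of the threshold, 22 lost and 18 gained a call, and 39 changed sign, of which 0 had been called. Of 10 clock genes, the number called after denervation in WT muscle was 2, with 0 under normexp, 1 with the slide as a block and 1 to 3 with 1 array left out. In KO muscle it was 5, with 2 under normexp, 3 with the slide as a block, and 3 to 6 with 1 array left out. The count of genes called for KO against WT averaged over conditions was 0 to 1 with 1 array left out. For KO muscles of the same replicate number the correlations of deviations were 0.0899, 0.0152 and 0.175, and no pairing was taken from them. With the replicate block 2 genes were called in WT muscle, as without it, and 8 in KO muscle, adding Arntl, Nr1d1 and Dbp, and the block changed no other count of calls. For the spread, settings added after seeing the data gave 5 genes with a larger SD in control arrays under normexp, beside 8, and 7 to 9 with 1 array left out.

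Signs changed in uncalled values only. Under normexp these were Per3 (0.19), Cry1 (0.18) and Dbp (-0.039) for denervation in WT, Cry1 in control muscle (-0.029) and Nr1d2 in denervated muscle (0.035) for KO against WT, and the interaction of Per1 (-0.068). With the slide as a block they were Per3 in WT (0.24) and the interactions of Clock (0.016) and Per1 (-0.042). Per1 in KO muscle was 0.041 with quantile normalization and 0.026 with the deposited matrix, its interaction -0.0081 with the array median, and Cry1 in control muscle -0.052 with the mean of probes. With 1 array left out, denervation in WT ranged from -0.19 to 0.40 for Dbp, -0.33 to 0.17 for Per1 and -0.62 to 0.10 for Per3, and in KO from -0.55 to 0.48 for Per1 and -0.68 to 0.71 for Per3. KO against WT in control muscle ranged from -0.23 to 0.18 for Cry1 and -0.86 to 0.16 for Per1. In denervated muscle it ranged from -0.33 to 0.072 for Dbp, -0.27 to 0.57 for Nr1d1, -0.23 to 0.013 for Nr1d2, -0.57 to 0.017 for Per1 and -0.85 to 0.036 for Per3. The interaction ranged from -0.31 to 0.14 for Clock, -0.72 to 0.11 for Nr1d1, -0.48 to 0.55 for Per1 and -0.38 to 1.02 for Per3. The cause of these changes was not tested. Per3 and the second Per2 probe are limited by a signal close to background, as is the main Per2 probe on KO control replicates 1 and 2.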
